A study of Homo sapiens with 6 samples.

Results

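The genes described here are 6 S100 calcium-binding proteins (S100A8, S100A9, S100A4, S100A6, S100A10 and S100A11) and 4 annexins (ANXA1, ANXA2, ANXA5 and ANXA6). They were chosen by name as genes that myeloid cells use, with earlier results of these data known. All 10 were found by symbol among the 58302 Ensembl genes of each count table, and all 10 were among the 14018 genes with enough reads to test. RNA was sequenced from HL-60, a promyelocytic leukaemia line of human origin that grows in suspension, in 6 libraries: 3 from cells with a short hairpin RNA (shRNA) against OSGEP (the knockdown) and 3 from cells with a control shRNA, whose genotype is labelled WT. Cells of both kinds were grown in medium with 20% fetal bovine serum, and no other allele or agent is named for either. The labels do not say how many hairpins or clones were used, nor whether libraries of 1 kind came from separate cultures, so the p-values rest on a spread between libraries that may be no more than technical. OSGEP is the catalytic subunit of the complex that places the t6A modification on tRNAs, and the study asked what its loss does to leukaemia cells.

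S100 proteins are small EF-hand proteins that change shape when they bind calcium and then grip a partner protein. Annexins bind calcium and, through it, the acidic phospholipids of membranes, and several S100 proteins dock on the tail of a particular annexin. In neutrophils and monocytes these families are known for antimicrobial metal binding, membrane repair, vesicle traffic and signals that start or end inflammation.

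Total counts per library lay between 8326982 and 10157091. Levels are given as CPM, counts per 1000000 scaled between libraries by the TMM method. OSGEP itself stood at 21.2, 23.1 and 20.9 CPM in the knockdown libraries, against 49.0, 54.4 and 76.9 CPM in the control libraries, so every knockdown library lay below every control library (log2 fold change -1.47, SE 0.21, edgeR adjusted p = 0.000228). Genes listed as markers of HL-60 as a promyelocytic line were clearly present in both kinds of cell. The 8 listed summed to between 1125 and 1219 CPM in the knockdown and between 2871 and 3014 CPM in the control. Of these 8, MPO, AZU1, ELANE and PRTN3, which encode granule proteins, fell and the other 4 were not called. Over all genes tested, 5.56% were called lower and 5.19% higher. The uncalled 4 were CTSG, also a granule protein gene (log2 fold change -0.72, groups not overlapping), CD33 (-0.03), SPI1 (-0.14) and CEBPE (0.94). The part of these 8 genes in the results below was not tested. In bulk RNA, less RNA per cell and fewer cells of a kind cannot be told apart.

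Of the 10 genes, 5 rose and 1 fell in the knockdown, and 4 did not pass the test. S100A9, S100A6, S100A11, ANXA1 and ANXA2 were higher, ANXA6 was lower, and S100A8, S100A4, S100A10 and ANXA5 were not called (edgeR's quasi-likelihood test, Benjamini-Hochberg adjusted p under 0.05 over all genes tested). Across all 14018 genes, the same rule called 10.8%, with 5.19% higher and 5.56% lower (727 and 780 genes, or 859 higher and 612 lower with scaling by library size alone). The median log2 fold change was 1.11 over the 10 and 0.01 over all genes tested. In 8 of the 10 the values of the knockdown and control libraries did not overlap, as was the case for 28.9% of all genes tested. For S100A9 and ANXA5 the gap was small. The 10 were chosen with earlier results of these data known, so setting them beside all genes is no test. The 6 S100 transcripts together summed to 1877, 1491 and 1735 CPM in the knockdown libraries, against 859, 850 and 836 CPM in the control libraries. S100A11 reads made up 63.6% to 64.8% of that sum in the knockdown and 45.4% to 46.8% in the control. The 4 annexins together summed to 812, 741 and 777 CPM in the knockdown, against 681, 701 and 631 CPM in the control.

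**Figure D1:**
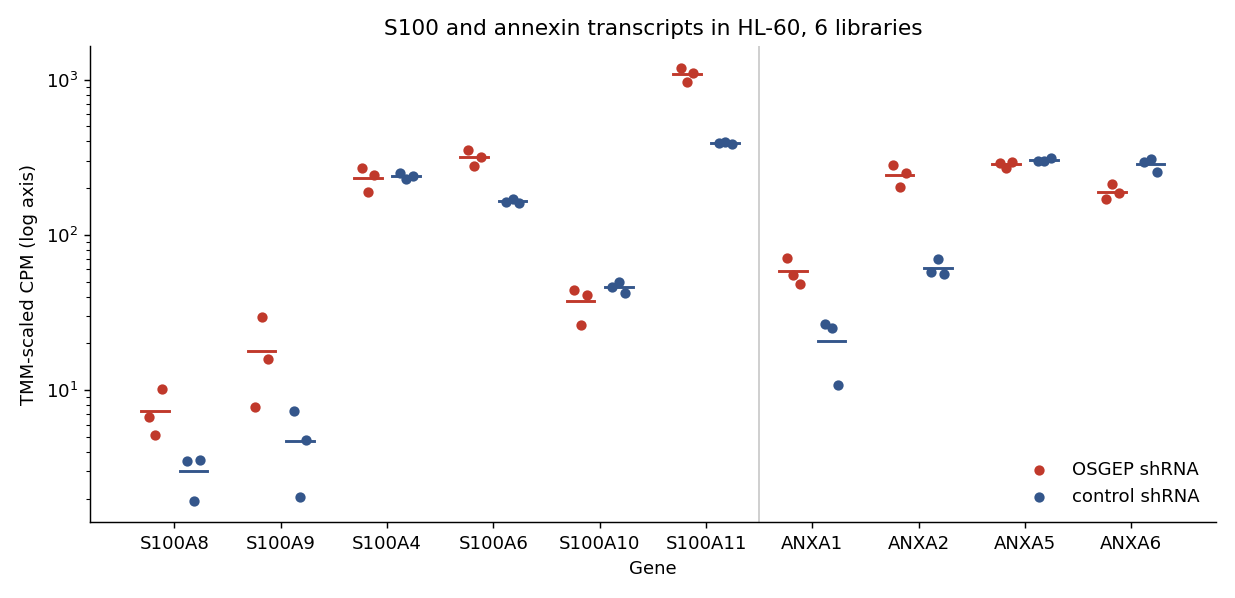
Level of each S100 and annexin transcript in CPM (log axis) in every library, with OSGEP shRNA in red on the left and control shRNA in blue on the right, and a bar at the mean of 3 libraries. The groups are apart for S100A6, S100A11, ANXA1 and ANXA2, where the knockdown is higher, and for ANXA6, where it is lower, while those of S100A4 and S100A10 overlap.

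S100A8 and S100A9 form calprotectin, the heterodimer that fills the cytosol of mature neutrophils and monocytes and binds zinc, manganese and calcium. Both were scarce in these cells. S100A9 had 7.83, 29.8 and 15.8 CPM in knockdown libraries 1, 2 and 3, against 7.32, 2.05 and 4.80 CPM in control libraries 1, 2 and 3. Knockdown library 1 lay just above control library 1, so the groups did not overlap but nearly touched. The log2 fold change was 1.91 (SE 0.52, edgeR adjusted p = 0.0248), which rests on 75 to 322 reads a library in the knockdown and 20 to 71 in the control. Without knockdown library 2, the highest, S100A9 stood at 1.32 and was no longer called (edgeR adjusted p = 0.173), and its call was lost in 6 of 14 alternative fits in all, among them those without knockdown library 3 (2.00), control library 2 (1.55) or control library 3 (1.92) and that with limma-voom (1.93). S100A8 had 6.68, 5.18 and 10.2 CPM in the knockdown libraries, against 3.50, 1.94 and 3.57 CPM in the control libraries. Every knockdown value was above every control value, yet with 19 to 86 reads a library the difference of 1.29 on the log2 scale (SE 0.57) was not called (edgeR adjusted p = 0.182). The third calgranulin, S100A12, was nearly absent, with 1, 21 and 17 reads in the knockdown libraries and 1, 0 and 0 reads in the control libraries, and was not tested.

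S100A11 binds the tail of annexin A1 and takes part in membrane repair and growth control. Its transcript reached 1194, 965 and 1107 CPM in the knockdown libraries, against 390, 398 and 386 CPM in the control libraries. The control libraries were close to each other and all knockdown libraries stood far above them. The log2 fold change was 1.48 (SE 0.10, edgeR adjusted p = 5.96e-08), a 2.78-fold rise.

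S100A6 (calcyclin), a regulator of cytoskeletal and ubiquitin-linked partners such as CACYBP, had 354, 276 and 319 CPM in the knockdown libraries, against 164, 171 and 161 CPM in the control libraries. Its groups were well apart. The log2 fold change was 0.94 (SE 0.12, edgeR adjusted p = 6.17e-05). S100A4, which binds non-muscle myosin IIA and is tied to cell motility, had 270, 188 and 243 CPM in the knockdown libraries, against 249, 228 and 239 CPM in the control libraries. The knockdown libraries lay on both sides of the control libraries, and the log2 fold change of -0.03 (SE 0.13) was not called (edgeR adjusted p = 0.926). It turned to 0.030 with scaling by library size alone and to 0.11 without knockdown library 2. S100A10 (p11), which has lost calcium binding and pairs with annexin A2 at the cell surface, had 44.4, 26.2 and 41.2 CPM in the knockdown libraries, against 45.9, 49.6 and 42.0 CPM in the control libraries. Its groups overlapped, with knockdown library 2 the lowest of the 6, and its log2 fold change of -0.30 (SE 0.22) was not called (edgeR adjusted p = 0.471).

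All 6 S100 genes lie on the long arm of chromosome 1, in 2 groups. S100A10 (positions 151982915 to 151994390) and S100A11 (152032506 to 152047907) are 38.1 kb apart, and 1310 kb further along come S100A9 (153357854 to 153361027), S100A8 (153390032 to 153391188), S100A6 (153534599 to 153536244) and S100A4 (153543613 to 153550136), all in GRCh38. S100A9 is on the plus strand and the other 5 are on the minus strand. Neighbours differed in their calls. S100A11 rose and S100A10 did not, and S100A6 rose while S100A4, 7.37 kb away, did not. Of the 16 listed S100 genes on chromosome 1, 8 had too few reads to test. The short gene S100A3 lies inside S100A4 on the same strand and held 21 reads over the 3 knockdown libraries and 12 over the 3 control libraries.

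**Figure D2:**
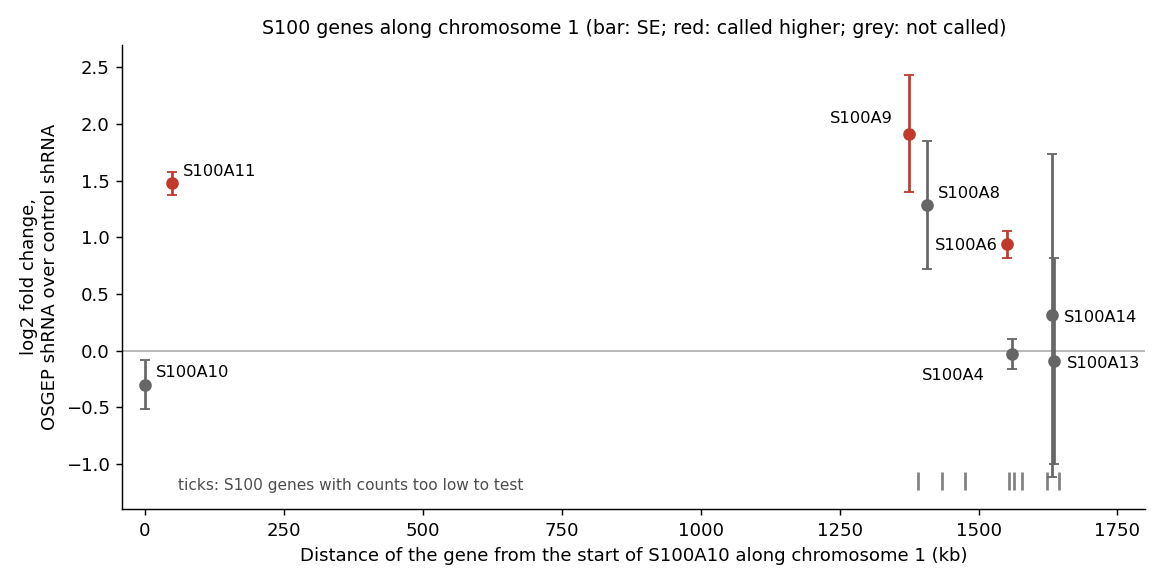
log2 fold change (OSGEP shRNA over control shRNA, bar: SE) of the tested S100 genes on chromosome 1 by their distance in kb from the start of S100A10, with ticks for those too low to test. S100A11 at 1.48 stands beside S100A10 at -0.30, and S100A6 at 0.94 beside S100A4 at -0.03.

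Among the annexins, ANXA2 moved the most. It joins membranes to actin and, with S100A10, gathers plasminogen and its activator on the cell surface. ANXA2 had 280, 202 and 251 CPM in the knockdown libraries, against 57.7, 70.1 and 56.0 CPM in the control libraries. The lowest knockdown library was well above the highest control library. The log2 fold change was 2.00 (SE 0.15, edgeR adjusted p = 2.40e-07), a 3.99-fold rise. ANXA1 (lipocortin 1), an anti-inflammatory protein released by myeloid cells that signals through formyl peptide receptors, had 70.9, 54.9 and 48.4 CPM in the knockdown libraries, against 26.8, 25.0 and 10.8 CPM in the control libraries. Control library 3 was the lowest, and the groups did not overlap. The log2 fold change was 1.47 (SE 0.28, edgeR adjusted p = 0.00259).

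ANXA6, a large annexin of endosomes and the plasma membrane, was the gene of the set that fell. It had 169, 214 and 185 CPM in the knockdown libraries, against 296, 307 and 254 CPM in the control libraries, with no overlap. The log2 fold change was -0.59 (SE 0.12, edgeR adjusted p = 0.00471). ANXA5, which binds exposed phosphatidylserine and is used to stain dying cells, had 292, 271 and 293 CPM in the knockdown libraries, against 300.3, 298.7 and 310.5 CPM in the control libraries. All knockdown values were lower, but by little, and the log2 fold change of -0.09 (SE 0.10) was not called (edgeR adjusted p = 0.696). It was -0.02 with scaling by library size alone, so the small gap between the groups depends on the scaling.

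**Figure D3:**
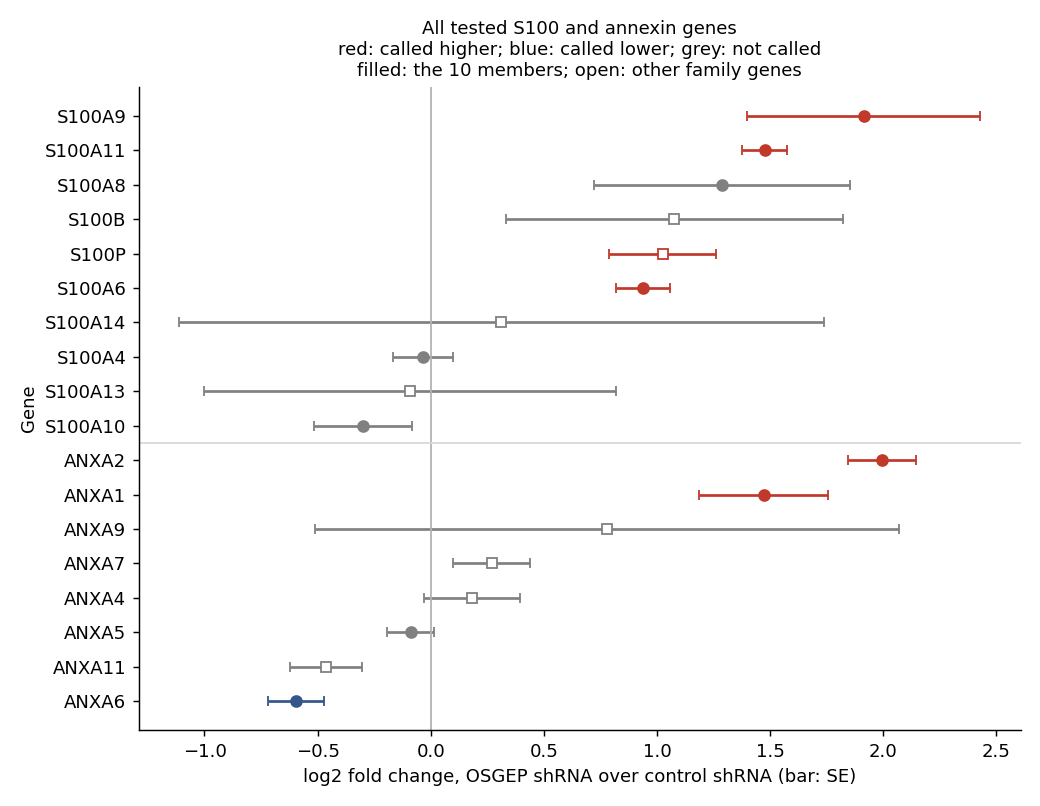
log2 fold change (OSGEP shRNA over control shRNA) with its SE for the 18 tested genes of both families, S100 genes above and annexins below. The genes called higher are S100A9, S100A11, S100P, S100A6, ANXA2 and ANXA1, and the gene called lower is ANXA6.

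The ANXA2 value may include reads of a copy. ANXA2P2 (ENSG00000231991), a processed pseudogene on chromosome 9 at 33624274 to 33625293 of GRCh38, is as long as the coding region of ANXA2 and differs from it at 16 of 1020 bases (98.4% identity, GENCODE release 29 transcripts). Of 871 windows of 150 bases, the read length, 115 (13.2%) are identical in both genes, so reads from these could have been counted to either. The 60-base stretch of the coding region in which they differ most is shown first for ANXA2 (bases 287 to 346 of the GENCODE transcript aligned) and then for ANXA2P2 (bases 161 to 220), with capitals at the 5 bases that differ.
ANXA2: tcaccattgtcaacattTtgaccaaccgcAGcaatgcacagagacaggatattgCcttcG
ANXA2P2: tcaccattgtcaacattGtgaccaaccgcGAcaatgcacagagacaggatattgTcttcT
ANXA2P2 was counted at 112, 117 and 106 CPM in the knockdown libraries, against 36.7, 28.4 and 42.0 CPM in the control libraries. It was called higher too, with a log2 fold change of 1.65 (SE 0.17, edgeR adjusted p = 8.18e-06). How many of its reads came from ANXA2 was not tested. With the reads of annotated pseudogenes added to their parent gene, ANXA2 stood at 1.86 and S100A11 at 1.47. S100A11P1, a pseudogene of S100A11 on chromosome 7, shares 91.4% of its bases with it and no identical window of 150 bases. It had 6.89, 8.14 and 9.13 CPM in the knockdown libraries, against 3.71, 4.70 and 2.46 CPM in the control libraries, and was not called (log2 fold change 1.14, edgeR adjusted p = 0.184).

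Upstream sequences are shown for the genes that were called higher in every alternative fit, with 1 uncalled gene of the 10 beside them. The 150 bases before the RefSeq transcription start (GRCh38.p14) are given 5′ to 3′ for ANXA2 (chr15:60397987-60398136, minus strand), S100A11 (chr1:152037005-152037154, minus strand), S100A6 (chr1:153535992-153536141, minus strand) and ANXA1 (chr9:73151715-73151864, plus strand), and for S100A4 (chr1:153545807-153545956, minus strand). S100A4, which was not called, is the gene of the 10 that lies nearest to S100A6. Capitals mark matches, on either strand, to the TATA box (TATAAA), GC box (GGGCGG), AP-1 site (TGANTCA), C/EBP core (TTGCNNAA) and CCAAT box (CCAAT).
ANXA2: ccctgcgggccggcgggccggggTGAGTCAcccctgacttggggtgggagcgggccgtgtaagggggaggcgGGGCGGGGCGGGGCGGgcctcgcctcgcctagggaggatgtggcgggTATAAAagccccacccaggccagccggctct
S100A11: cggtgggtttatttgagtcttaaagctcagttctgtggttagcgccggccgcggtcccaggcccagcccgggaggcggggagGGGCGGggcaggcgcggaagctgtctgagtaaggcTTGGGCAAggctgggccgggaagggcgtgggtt
S100A6: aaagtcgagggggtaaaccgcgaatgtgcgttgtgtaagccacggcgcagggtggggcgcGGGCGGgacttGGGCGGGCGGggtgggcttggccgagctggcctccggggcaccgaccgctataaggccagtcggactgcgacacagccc
ANXA1: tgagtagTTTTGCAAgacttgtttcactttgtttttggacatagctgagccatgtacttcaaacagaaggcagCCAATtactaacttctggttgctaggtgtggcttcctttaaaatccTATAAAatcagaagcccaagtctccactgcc
S100A4: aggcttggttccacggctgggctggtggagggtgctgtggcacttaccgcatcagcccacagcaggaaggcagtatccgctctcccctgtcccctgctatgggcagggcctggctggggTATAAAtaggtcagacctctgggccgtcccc
TATAAA begins 31 bases before the start of ANXA2, ANXA1 and S100A4 and is not in the windows of S100A11 and S100A6, and GGGCGG occurs in those of ANXA2, S100A11 and S100A6 but not of ANXA1 and S100A4. Only exact letters were sought, so a near match such as tataag in the S100A6 window is not marked. The AP-1 letters begin 127 bases before the start of ANXA2. The C/EBP letters begin 33 bases before the start of S100A11 and 143 before that of ANXA1. The C and G content runs from 41.3% in ANXA1 to 76.0% in ANXA2. Over the 35116 promoters of the table, 6.71% hold TATAAA in such a window, 36.8% GGGCGG, 4.17% the AP-1 letters, 5.02% the C/EBP letters and 23.5% CCAAT. Of the 10 genes, 5 hold TATAAA in at least 1 window (S100A8, S100A9, S100A4, ANXA1 and ANXA2), 6 hold GGGCGG, 1 the AP-1 letters, 2 the C/EBP letters and 2 CCAAT, over 13 windows, since S100A8 and ANXA6 have more than 1 start. The shares over all promoters are counted by window, and by window TATAAA was in 6 of the 13 and GGGCGG in 6. Of the TATAAA windows, 2 are overlapping windows of S100A8 that hold the same letters. All these matches are descriptions of sequence and not sites of binding.

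Ratios of read counts between gene pairs within a library do not depend on scaling between libraries. The counts were not divided by gene length, so they are not ratios of molecules. With 3 libraries against 3, the exact two-sided permutation test cannot give a p below 0.10, so these are descriptions. S100A10 and ANXA2, whose proteins form a heterotetramer, stood at 0.159, 0.129 and 0.164 reads of S100A10 for each read of ANXA2 in the knockdown libraries, against 0.795, 0.708 and 0.749 in the control libraries. The ratio was thus 5.00-fold lower in the knockdown, with no overlap (exact permutation p = 0.10, the smallest possible). With pseudogene reads added to their parent gene, the difference of mean log2 ratios went from -2.32 to -2.19. S100A4 over S100A6 was 0.762, 0.680 and 0.761 in the knockdown libraries, against 1.52, 1.33 and 1.49 in the control libraries, so it was below 1 in every knockdown library and above 1 in every control library (exact permutation p = 0.10, the smallest possible).

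S100A11 and ANXA1, whose proteins bind each other, were both called higher. Their ratio was 16.8, 17.6 and 22.9 in the knockdown libraries, against 14.5, 15.9 and 35.7 in the control libraries, and the groups overlapped (difference of mean log2 ratios -0.10, exact permutation p = 1). S100A8 over S100A9 was 0.853, 0.174 and 0.647 in the knockdown libraries, against 0.479, 0.950 and 0.744 in the control libraries, with knockdown library 2 far below the rest and the groups overlapping (exact permutation p = 0.60). ANXA5 over ANXA6 was 1.72, 1.27 and 1.59 in the knockdown libraries, against 1.01, 0.973 and 1.22 in the control libraries, with no overlap and a narrow gap (exact permutation p = 0.10, the smallest possible).

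**Figure D4:**
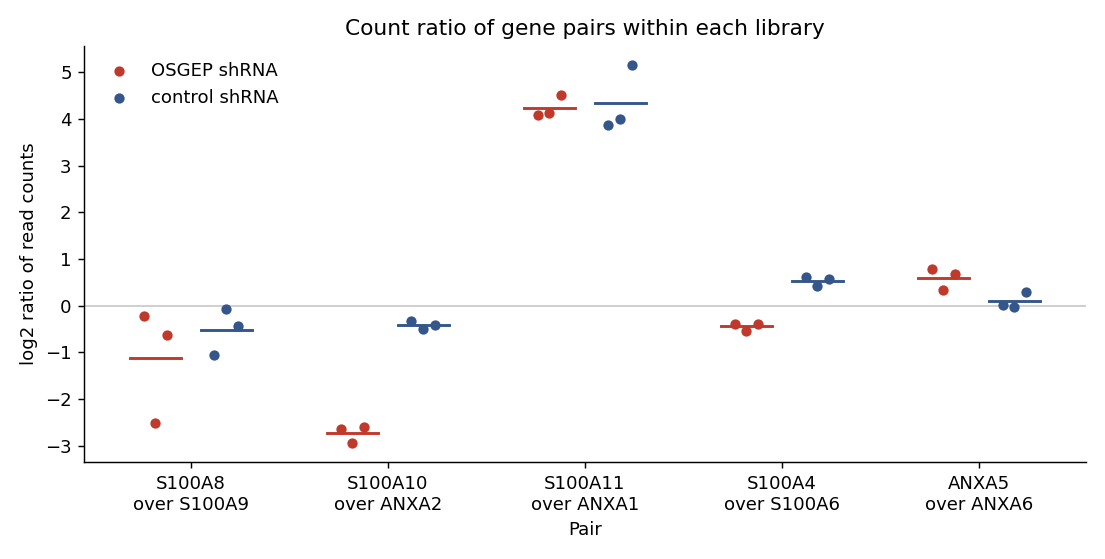
log2 ratio of read counts of 5 gene pairs in each library, with OSGEP shRNA in red on the left, control shRNA in blue on the right and a bar at the mean of 3 libraries. S100A10 over ANXA2 averages -2.74 in the knockdown and -0.42 in the control, and S100A4 over S100A6 -0.45 in the knockdown and 0.53 in the control.

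Per length of annotated exons, the order of the transcripts was led by S100A11 in both kinds of cell. In CPM per kilobase of the union of exons, S100A11 stood at 1601 ± 170 in the knockdown and 575 ± 8.58 in the control (SD, n = 3 each). In the knockdown it was followed by S100A6 (326 ± 40.2), S100A4 (228 ± 40.8), ANXA5 (94.0 ± 4.11) and ANXA6 (34.9 ± 4.15), and in the control by S100A4 (233 ± 10.4), S100A6 (170 ± 5.41), ANXA5 (99.9 ± 2.12) and ANXA6 (52.6 ± 5.17). The libraries of neighbours in these orders did not overlap. Next in the knockdown came S100A9 (30.8 ± 19.3), ANXA2 (27.7 ± 4.45) and S100A10 (24.1 ± 6.32), where each overlapped the next and S100A9 overlapped ANXA6. In the control the order was S100A10 (29.7 ± 2.48), S100A9 (8.18 ± 4.57) and ANXA2 (6.94 ± 0.870), of which the last pair overlapped. ANXA1, at 12.7 ± 2.55 in the knockdown and 4.57 ± 1.91 in the control, and S100A8, at 7.31 ± 2.56 in the knockdown and 2.99 ± 0.915 in the control, were lowest, and overlapped each other in the control. With the longest transcript as length, 7 of the 10 kept their rank in the knockdown and 7 in the control, and ANXA2 reached 69.3 ± 11.1 in the knockdown and 17.4 ± 2.18 in the control. By that length ANXA2 ran from 57.3 to 79.3 in the knockdown libraries and S100A9 from 13.6 to 51.6. In the control libraries ANXA2 ran from 15.9 to 19.9 and S100A9 from 3.55 to 12.7. ANXA2 was then above S100A9 without overlap, so the order of these genes depends on the length used.

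In the rest of both families, 1 further gene was called, while 10.8% of all genes tested were called. Of the 14 other S100 genes, 4 had enough reads to test, and S100P, an S100 protein secreted by several cancers, rose while S100A13, S100A14 and S100B were not called. S100P had 43.8, 35.6 and 54.8 CPM in the knockdown libraries, against 24.1, 24.3 and 17.4 CPM in the control libraries. The groups did not overlap, and the log2 fold change was 1.02 (SE 0.23, edgeR adjusted p = 0.00899). That call was lost without knockdown library 3 (0.87) or control library 3 (0.88). Of the 9 other annexins, ANXA4, ANXA7, ANXA9 and ANXA11 were tested and 0 were called by edgeR. ANXA11, which binds the calcium-binding protein S100A6 and coats vesicles, had 150, 145 and 99.0 CPM in the knockdown libraries, against 155, 200.3 and 188 CPM in the control libraries (log2 fold change -0.46, edgeR adjusted p = 0.0799). These groups did not overlap.

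Receptors of these proteins were read as well. Of 12 listed, 10 were tested, but 3 of these (CD36, LY96 and FPR2) passed the filter on low counts through the knockdown libraries alone, so their tests and any count or median that includes them carry no support. Of the other 7, NPTN rose, ALCAM fell and 5 were not called, while 10.8% of all genes tested were called. CD36, a fatty acid receptor that also takes up lipid carried by S100A8 and S100A9, had 119, 94.4 and 82.4 CPM in the knockdown libraries, against 0.927, 0.818 and 0.615 CPM in the control libraries, where it had 9, 8 and 5 reads. NPTN, a receptor for S100A8, had 93.9, 63.7 and 73.1 CPM in the knockdown libraries, against 46.7, 45.2 and 34.2 CPM in the control libraries (log2 fold change 0.87, SE 0.19, edgeR adjusted p = 0.00668). NPTN lost its call without control library 3 (0.74). ALCAM, an adhesion receptor that binds S100B, fell to 48.0, 30.1 and 35.7 CPM in the knockdown libraries, against 70.9, 72.6 and 82.8 CPM in the control libraries (-0.99, SE 0.19, edgeR adjusted p = 0.00256). LY96, the co-receptor of TLR4, named after its values were seen, had 48, 40 and 63 reads in the knockdown libraries, against 0, 1 and 7 reads in the control libraries. TLR4, a receptor for calprotectin, had 69.7, 64.1 and 81.0 CPM in the knockdown libraries, against 46.6, 58.8 and 42.2 CPM in the control libraries, and was not called, although the groups did not overlap (0.54, edgeR adjusted p = 0.0661). The annexin A1 receptor FPR2 was near silent, at 1.77, 1.66 and 4.86 CPM in the knockdown libraries, against 0.412, 0 and 0 CPM in the control libraries.

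Of 12 intracellular partners and surface proteases, 11 were tested and 1 was called, where the share over all genes tested was 10.8%. The gene called was CTSB, the lysosomal protease cathepsin B that can dock on annexin A2 and S100A10, which rose. It had 946, 810 and 821 CPM in the knockdown libraries, against 352, 394 and 409 CPM in the control libraries (1.16 on the log2 scale, SE 0.10, edgeR adjusted p = 1.34e-06). The remaining 10 were not called. Among them, AHNAK, a giant scaffold bound by S100A10 and annexin A2, had 193, 334 and 250.1 CPM in the knockdown libraries, against 366, 295 and 305 CPM in the control libraries (-0.31, edgeR adjusted p = 0.267). The plasminogen activator PLAU and its receptor PLAUR had log2 fold changes of 0.16 and -0.03, CACYBP 0.17 and the S100A4 partner MYH9 0.22. The median over the 11 was 0.11.

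Of 8 membrane repair genes, 5 were tested, 1 rose and 1 fell (median log2 fold change 0.17). Over all genes tested, 10.8% were called. MYOF, the ferlin that aids membrane fusion and repair, had 27.0, 25.5 and 21.3 CPM in the knockdown libraries, against 11.8, 7.47 and 5.05 CPM in the control libraries (1.59, SE 0.34, edgeR adjusted p = 0.00492). CAPN2, the catalytic subunit of m-calpain, had 160, 134 and 134 CPM in the knockdown libraries, against 192, 205 and 191 CPM in the control libraries (-0.46, SE 0.12, edgeR adjusted p = 0.0248). Its call was lost in 5 of the 6 fits that left out 1 library, and held without knockdown library 1. Of 8 transcription factors known to act on these genes, 0 were called by edgeR. They were CEBPA, CEBPB, CEBPD, CEBPE, SPI1, STAT3, HIF1A and NR3C1, with log2 fold changes from -0.14 for SPI1 to 0.94 for CEBPE. CEBPE had 9.60, 29.6 and 35.5 CPM in the knockdown libraries, against 16.7, 11.3 and 10.8 CPM in the control libraries, and the groups overlapped (edgeR adjusted p = 0.154). In 2 of the 8, HIF1A (0.54) and STAT3 (0.25), the groups did not overlap and the knockdown was higher. Over all genes tested, the groups did not overlap in 28.9%.

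Other genes followed the same course over the 6 libraries, by the root-mean-square difference of log2 CPM after each gene was centred on its own mean. Among 10483 genes with a mean of at least 5 CPM, the nearest to S100A11 were IGF2R (0.04), PSAT1 (0.05) and LGALS3 (0.06), and to S100A6 TTL (0.05), FCER1G (0.07) and AKAP13 (0.07). ANXA2 was nearest to MTUS1 (0.09), RGS12 (0.10) and PLIN2 (0.12), and ANXA1 to TMOD2 (0.12), SLC7A8 (0.16) and USP46 (0.18). ANXA6 was nearest to MSTO1 (0.04), MCM3 (0.05) and CEBPG (0.07). S100A9 had no close companion, with FBXL13 at 0.30, ATOSB at 0.37 and RGS14 at 0.40. The measure is mostly the difference between the groups and the 6 libraries are shared by all genes, so it carries no test.

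S100A6, ANXA1 and ANXA2 are also strongly expressed in epithelial and mesenchymal cells, so markers of those cells were read in the same libraries. The 10 listed summed to between 26.0 and 35.1 CPM in the knockdown and between 18.4 and 24.1 CPM in the control. Of 5 tested, CDH1 rose and the other 4 were not called, while 10.8% of all genes tested were called. CDH1 had 13.3, 9.98 and 12.1 CPM in the knockdown libraries, against 3.81, 4.40 and 3.45 CPM in the control libraries (log2 fold change 1.59, edgeR adjusted p = 0.0219). KRT14 had 1 read over all 6 libraries together, and EPCAM, KRT5, COL3A1 and PDGFRB were too low to test. Lymphoid markers summed to between 40.1 and 54.3 CPM in the knockdown and between 86.2 and 104 CPM in the control. Most of it was NKG7, which fell, and PAX5. PAX5 had 24.0, 20.5 and 8.54 CPM in the knockdown libraries, against 0.515, 0.511 and 3.32 CPM in the control libraries. It reached the cut-off of the filter on low counts in 3 knockdown libraries but only 1 control library, so its test carries no support. Erythroid and megakaryocytic markers summed to between 1.04 and 8.42 CPM in the knockdown and between 3.94 and 10.6 CPM in the control. PPBP was at 0 in every library. KLF1 had 65 reads over the knockdown libraries and 147 over the control libraries, and was not called. Whether these lists bear on the S100 and annexin values was not tested.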

How the data were processed

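The deposited files hold unnormalised counts of reads for each Ensembl gene, separately by library, and these counts were used as deposited. Per the labels' protocols, total RNA went into a stranded mRNA library kit and was read as pairs of 150 bases. The submitters' processing notes list HISAT2 2.1.0, featureCounts 1.6.3 and the builds GRCh38 and GRCm38, with no role for each. Which annotation was counted, on which strand, and what became of multiply aligned reads is not given in the sources used here, so reads of copies, overlapping and antisense genes may not be told apart. No sense or antisense gene overlapping the 10 had a read, other than S100A3.

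Symbols, positions and exon lengths came from GENCODE release 29 (GRCh38) and a table of current names. Of 58302 identifiers, 58039 were in GENCODE and 57532 in the name table. Promoters came from RefSeq (GRCh38.p14) and held all 10 genes. Groups and replicate numbers came from the sample titles. Libraries of the same group differed by a chi-square of 10.5 to 25.6 for each degree of freedom, so no library was a copy of another.

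Groups were compared by quasi-likelihood F tests in edgeR 4.0.16 (R 4.3.3) on a model of group alone, with TMM scaling and the default filter (minimum count 10, minimum total 15), two-sided, with Benjamini-Hochberg adjustment over all 14018 genes tested and a call at 0.05. On simulated counts, the test called 7.46% of 67 genes changed 1.5-fold, 32.8% of 67 changed 2-fold and 69.7% of 66 changed 4-fold. There were 2 false calls among 75. The changed genes were drawn at any level and were far fewer than the genes called in the data. These rates are thus not those of the abundant genes among the 10. A gene that was not called is still not shown to be unchanged. Each standard error is the fold change divided by the square root of F. Values per library are in the order 1, 2, 3. Alternatives were RLE factors or library size alone for scaling, a filter of 1 read or of a mean of 5 CPM, a replicate block, the omission of each library, limma 3.58.1 (voom) and DESeq2 1.42.0, and, added after the data were seen, pseudogene counts added to the parent gene. Ratios used raw counts and the exact permutation test of scipy 1.17.1.

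The 10 genes and all lists were chosen with earlier results of these data known. Named genes were the 10, every called gene of the lists with a mean of at least 5 CPM, OSGEP, pseudogenes and overlapping genes of the 10, and the 3 nearest genes of each called member. Genes beyond that rule serve as background or as marker checks.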

Additional observations from a re-analysis of the deposited data

How the results depend on the processing

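Over 14 alternatives, S100A6, S100A11, ANXA1, ANXA2 and ANXA6 kept direction and call, S100A8, S100A10 and ANXA5 kept direction and were never called, and the count of the 10 genes called higher was 4 or 5 and called lower 1. S100A9 lost its call in 6, and S100A4, never called, changed sign in 2: its log2 fold change was 0.030 with library size alone, and ran from -0.15 to 0.11 with 1 library left out (0.11 without knockdown library 2). Leaving out 1 library gave 445 to 726 genes called higher and 423 to 898 called lower, against 727 and 780 with all; the counts moved by over 1.5 times without knockdown library 3 (483 higher, 458 lower), control library 2 (467 higher, 423 lower) and control library 3 (445 higher, 425 lower). In the same fits the log2 ratio difference ranged from -1.06 to 0.09 for S100A8 over S100A9, -2.39 to -2.22 for S100A10 over ANXA2, -0.33 to 0.31 for S100A11 over ANXA1, -1.04 to -0.92 for S100A4 over S100A6 and 0.41 to 0.63 for ANXA5 over ANXA6. Same-numbered libraries did not deviate together (correlations of -0.12, -0.06 and -0.04), so the numbers were not taken as pairs; with the replicate block, 519 genes were called higher and 553 lower, and S100A9 stood at 1.83 (edgeR adjusted p = 0.0999) and CAPN2 at -0.46, both uncalled. Depth limits what can be said of S100A8, with 19 to 86 reads a library, and of S100A9, with 20 to 322.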
